A study of Mus musculus with 21 samples.

Results

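Genes of fat cells were read in control and Notch3-/- hearts to see how much RNA of fat cells and of lipid-storing cells the heart samples held and whether it differed by genotype. The set held 10 mouse genes, Adipoq, Plin1, Plin4, Cfd, Cidec, Lep, Retn, Cidea, Ucp1 and Elovl3, found by symbol among the 46517 Ensembl genes of the counts table. Bulk RNA-sequencing measured the RNA of left ventricle tissue from 4 control mice (Notch3+/+) and 3 Notch3-/- mice, all C57BL/6J and 10 to 14 months old. The Notch3-/- mice carried a lacZ gene inserted into the Notch3 locus, and the sexes of the sequenced mice are not given in the sources used here. RNA from each mouse was made into 3 technical libraries (21 in all), and their counts were added up to give 1 value a mouse. The sums were 3091461, 4638786, 4208205 and 3046326 counts in controls 1 to 4, against 3828763, 5167869 and 5086740 in Notch3-/- mice 1 to 3.

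Fat cells store triglyceride in 1 large droplet (white fat) or in many small ones that feed heat production (brown fat). Perilipins (Plin genes) coat these droplets and CIDE proteins (Cidea, Cideb, Cidec) help them to fuse, while adiponectin (Adipoq), leptin (Lep), resistin (Retn) and adipsin (Cfd) are secreted into blood. Some genes of the set are also used outside fat: heart and skeletal muscle make Plin4, and the liver makes Elovl3, a fatty acid elongase whose liver level is higher in males.

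The targeted gene was read first as a check of the labels. Notch3, a receptor of vascular smooth muscle, had 174, 200, 245 and 185 counts in controls 1 to 4, against 22, 36 and 25 counts in Notch3-/- mice 1 to 3. All 3 Notch3-/- mice lay below all 4 control mice, as the labels say. The log2 fold change was -3.16 (SE 0.23, FDR 0.00173 in edgeR with Benjamini-Hochberg adjustment over all genes), and it was the 1 gene called of 14324 tested (0.00698%). A call needed both a fold change of 1.5 or more and a false discovery rate (FDR, the p adjusted over all genes) below 0.05. The tissue label was read from muscle genes: summed CPM (counts per 1000000 counts of the mouse, with totals scaled by TMM factors) of 8 ventricular genes were 27307, 19475, 22695 and 26139 in the controls, against 27017, 17567 and 19114 in Notch3-/- mice. Of these 8, Ttn, Myh6 and Tnnt2 had the highest mean CPM, at 11848, 4074 and 1592. The 4 atrial genes summed to 35.2 to 191 CPM over the 7 mice, with means of 82.5 CPM for Nppa, 5.42 for Myl4 and 2.47 for Myl7.

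Adipoq, Plin1, Cfd, Lep, Retn and Ucp1 had few counts in every heart, and these members are grouped here by their low counts. Plin4, Cidea, Cidec and Elovl3, which had more counts in some or all mice, are given below. Adiponectin, the most abundant hormone of fat cells, had 0, 3, 0 and 7 Adipoq counts in controls 1 to 4, against 2, 1 and 0 in Notch3-/- mice 1 to 3. Plin1, the droplet coat of mature fat cells, had 0, 1, 0 and 1 counts in the controls, against 0 in each Notch3-/- mouse. Ucp1, the uncoupling protein of brown fat, had 0, 0, 1 and 1 counts in the controls, against 0, 2 and 0 in Notch3-/- mice. Together with Cfd, Lep and Retn these 6 genes summed to 2, 7, 2 and 30 counts in the controls, against 13, 12 and 1 in Notch3-/- mice, so control mouse 4 stood highest and the groups overlapped. In CPM the sums were 0.653, 1.45, 0.462 and 9.89 in the controls, against 3.54, 2.48 and 0.187 in Notch3-/- mice. A count of 0 allows up to 3 counts, which is 0.561 to 0.989 CPM depending on the mouse, and such floors and the intervals given here cover counting error only. In bulk tissue, fewer cells of a type and less RNA per cell cannot be told apart.

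The secreted factors had few counts. Leptin, the satiety hormone, had 11 Lep counts in control mouse 4 and 0 in the other 6 mice. Those 11 came from 2 of its 3 libraries, and the library with 0 was the smallest of all, at 464390 counts. Adipsin, a complement protease, had 1, 1, 0 and 8 Cfd counts in the controls, against 9, 8 and 0 in Notch3-/- mice. Control mouse 4 and Notch3-/- mice 1 and 2 were thus alike for Cfd, and 2 of the 7 mice had none. Pooled over mice, the Cfd ratio of Notch3-/- to control CPM was 1.87 with a 95% counting interval of 0.809 to 4.57, which includes equal levels. It depended on single mice, as it was 1.20 (0.411 to 3.37) without Notch3-/- mouse 1, 3.04 (1.32 to 7.44) without Notch3-/- mouse 3 and 7.49 (1.78 to 66.8) without control mouse 4, which left 2 control counts. Resistin, a hormone of mouse fat cells, had 1 or 2 Retn counts in each of the 7 mice. The pooled Adipoq ratio was 0.330 (95% counting interval 0.0584 to 1.28), with 3 counts in the Notch3-/- mice together. It was 0.150 (0.00345 to 1.05) without Notch3-/- mouse 1, 0.537 (0.0950 to 2.09) without Notch3-/- mouse 3 and 0.881 (0.118 to 6.58) without control mouse 4. Without control mouse 3 it was 0.236 (0.0418 to 0.918), the 1 interval of these that does not include equal levels. Counting intervals leave out the spread between mice, so they are no test of genotype.

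**Figure D1:**
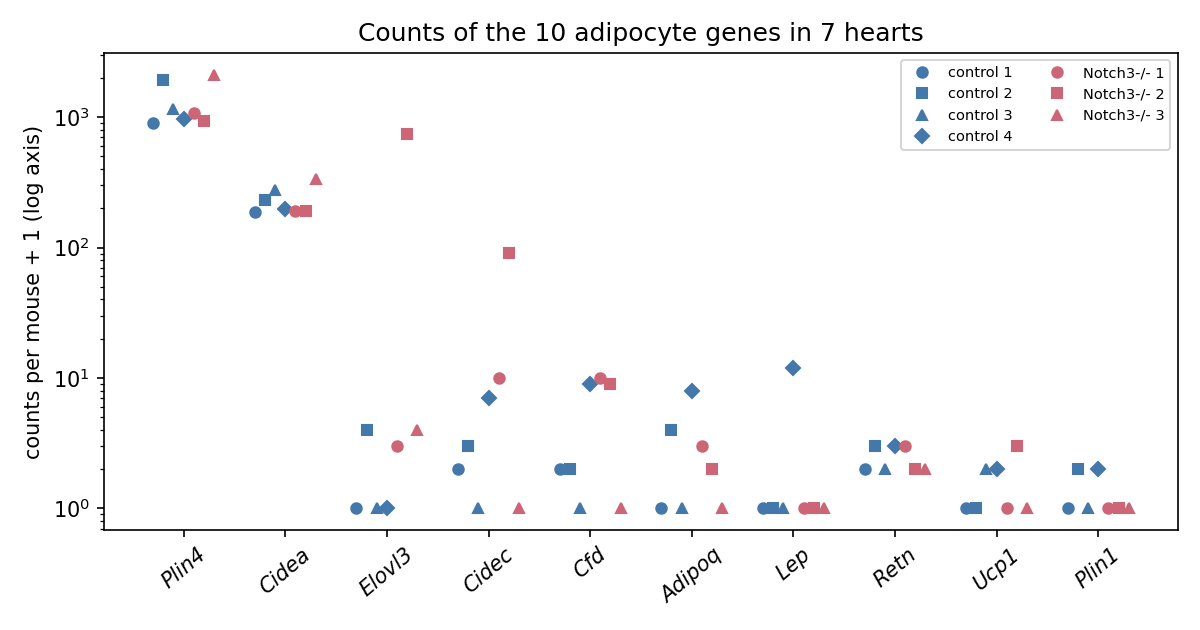
Counts per mouse plus 1, on a log axis, for the 10 adipocyte genes in 4 control mice (blue) and 3 Notch3-/- mice (red), each point 1 mouse with 3 technical libraries summed. Plin4 and Cidea are high in all 7 mice, Elovl3 and Cidec are high in Notch3-/- mouse 2, and the other 6 genes have 11 counts or fewer in every mouse.

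Plin4 and Cidea had counts in every mouse and every library. Plin4, a perilipin of nascent droplets, had 292, 397, 267 and 316 CPM in controls 1 to 4, against 292, 194 and 395 CPM in Notch3-/- mice 1 to 3. Its lowest and its second highest level were both in Notch3-/- mice, and the groups overlapped. The means were 318 ± 56.5 CPM (SD, n = 4) and 294 ± 101 CPM (SD, n = 3), with a log2 fold change of -0.12 (SE 0.22, FDR 0.895 in edgeR with Benjamini-Hochberg adjustment over all genes). Its direction depended on single mice, as it was 0.0057 without control mouse 2 and 0.11 without Notch3-/- mouse 2. Plin4 (ENSMUSG00000002831) is at chr17:56100591-56109803 on the minus strand (GENCODE vM21, GRCm38), 23.9 megabases from Notch3, and shares 17 exon bases with Hdgfl2 on the other strand. Whether the counting used strand is not stated.

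Cidea, a droplet fusion factor known from brown fat, had 60.4, 48.1, 64.0 and 65.0 CPM in the controls, against 51.4, 39.4 and 62.8 CPM in Notch3-/- mice. The lowest level was again in Notch3-/- mouse 2, and the groups overlapped. The means were 59.3 ± 7.77 CPM (SD, n = 4) and 51.2 ± 11.7 CPM (SD, n = 3), with a log2 fold change of -0.21 (SE 0.19, FDR 0.734 in the same edgeR test with Benjamini-Hochberg adjustment). For Cidea the SD of log2 CPM was 0.42 over the single libraries of a mouse and 0.24 over the mouse means, each of 3 libraries. For Plin4 these were 0.30 and 0.36. A mean of 3 libraries varies less than a single library, so the SDs of a gene are not on 1 scale.

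**Figure D2:**
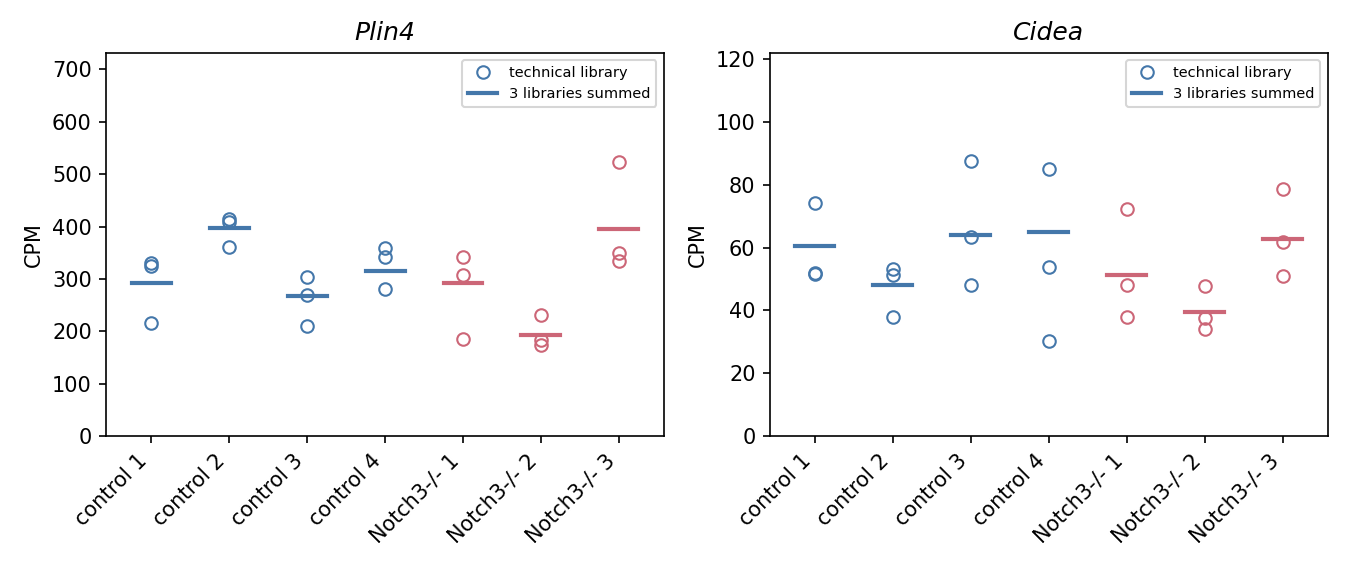
Plin4 and Cidea CPM in each technical library (open circles) and in the sum of the 3 libraries of each mouse (bars), for 4 control mice (blue) and 3 Notch3-/- mice (red). Notch3-/- mouse 2 has the lowest bar for both genes, and the groups overlap.

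Promoters are shown for Plin4, the member with the most counts, and for Plin1 and Adipoq, which were near 0, so that the sequences upstream of genes at both ends can be read side by side. They come from RefSeq (GRCm38.p6), which had entries for 8 of the 10 genes, 5′ to 3′ on the gene's strand, and start 250 bases before the gene start. Bases that GENCODE places in an exon were left out, which shortened the Plin1 and Plin4 sequences to 123 and 229 bases. Capitals mark CCAAT on either strand, the 1 motif of those searched that lay in the bases printed.
Plin4, chr17:56109804-56110032, minus strand: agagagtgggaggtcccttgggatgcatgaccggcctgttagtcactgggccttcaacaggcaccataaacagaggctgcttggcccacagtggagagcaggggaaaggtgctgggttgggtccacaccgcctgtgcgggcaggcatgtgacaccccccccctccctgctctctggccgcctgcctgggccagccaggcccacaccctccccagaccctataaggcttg
Plin1, chr7:79732904-79733026, minus strand: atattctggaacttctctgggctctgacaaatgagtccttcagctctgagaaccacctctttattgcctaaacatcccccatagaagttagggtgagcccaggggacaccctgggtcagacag
Adipoq, chr16:23146286-23146535, plus strand: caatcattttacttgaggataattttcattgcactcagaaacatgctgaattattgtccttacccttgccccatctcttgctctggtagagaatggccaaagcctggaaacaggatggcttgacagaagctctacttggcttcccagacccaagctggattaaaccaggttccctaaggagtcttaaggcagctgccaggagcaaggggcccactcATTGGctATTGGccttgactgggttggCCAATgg
In the full window of 250 bases CCAAT was in the Adipoq and Plin4 promoters and in 33.8% of 32851 promoters. AGGTCA was in Ucp1 (14% of promoters), GGGCGG in Lep (32.7%), and TATAAA in none of the 8 genes (12.4%). A match describes letters only.

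The other perilipins and CIDE genes were read beside the members. Levels between genes were compared as mean CPM per kilobase of exon over the 7 mice. Plin5, the perilipin of oxidative tissue, was highest at 175 ± 29.1 (SD, n = 7), followed by Plin3 at 95.9 ± 15.7. Plin4 (53.2 ± 12.4), Plin2 (52.9 ± 22.5) and Cidea (50.1 ± 8.73) came next and did not differ beyond their spread. Cideb, a CIDE gene of liver, had 23.0 ± 34.6, Cidec 1.83 ± 3.65 and Plin1 0.0165 ± 0.0292. Plin2 was highest in Notch3-/- mouse 2, at 104 CPM per kilobase against 40.2 to 48.7 in the control mice. Cideb had 27.6, 99.5 and 9.17 CPM per kilobase in Notch3-/- mice 1 to 3, all above the control range of 4.04 to 8.87.

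**Figure D3:**
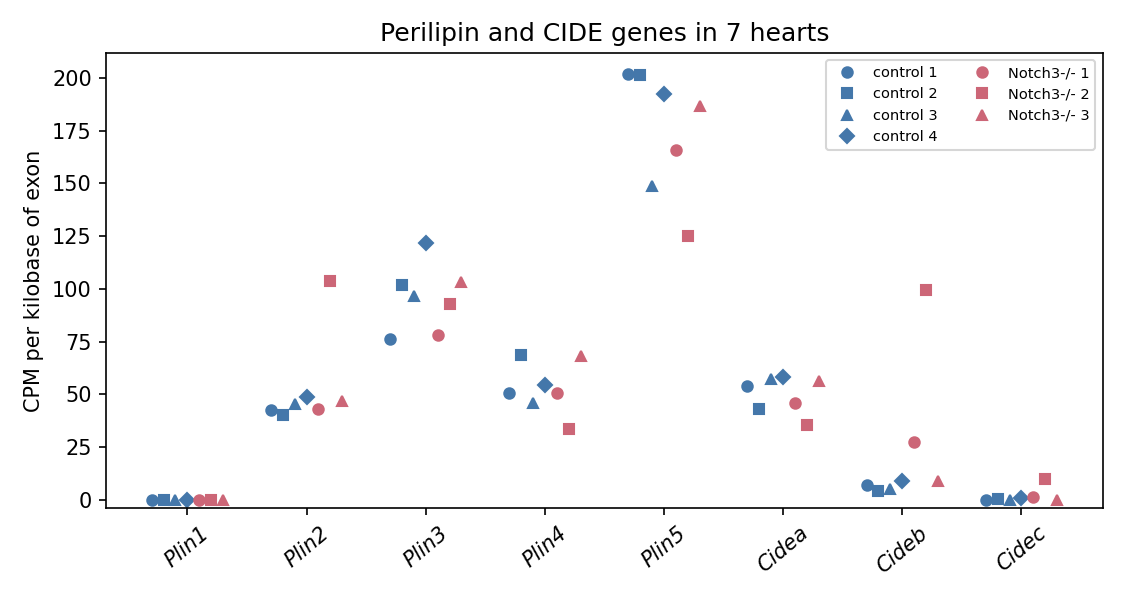
CPM per kilobase of exon for 5 perilipin and 3 CIDE genes in 4 control mice (blue) and 3 Notch3-/- mice (red), each point 1 mouse. Plin5 is highest and Plin1 lies at or near 0, and Plin2, Cideb and Cidec have their highest point in Notch3-/- mouse 2.

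Elovl3 (ENSMUSG00000038754, chr19:46131897-46135694) and Cidec (ENSMUSG00000030278, chr6:113424634-113435760) were high in a single heart. Elovl3 had 0, 3, 0 and 0 counts in controls 1 to 4, against 2, 742 and 3 in Notch3-/- mice 1 to 3. The 742 counts were spread over all 3 libraries of Notch3-/- mouse 2, as 268, 234 and 240. Cidec, the droplet fusion factor of white fat that is also made in fatty liver, had 1, 2, 0 and 6 counts in the controls, against 9, 90 and 0 in Notch3-/- mice, with 34, 29 and 27 in the libraries of mouse 2. The pooled ratio of Notch3-/- to control CPM was 274 for Elovl3 (95% counting interval 93.4 to 1331), with 3 control counts, and 2.82 (0.548 to 18.1) without Notch3-/- mouse 2. Without Notch3-/- mouse 3 the Elovl3 ratio was 444 (151 to 2158), and without control mouse 2 no control count was left. For Cidec it was 12.1 (6.12 to 27.2) with all mice and 1.69 (0.594 to 4.81) without Notch3-/- mouse 2. The Cidec ratio was 19.7 (9.96 to 44.3) without Notch3-/- mouse 3 and 29.1 (9.67 to 143) without control mouse 4, which left 3 control counts.

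Genes of liver cells were high in the same mouse and in Notch3-/- mouse 1. All 15 hepatocyte genes had counts, and their summed CPM was 178, 288, 111 and 122 in the controls, against 7201, 11409 and 265 in Notch3-/- mice. Trf, Alb and Ahsg had the highest mean CPM, at 538, 531 and 207. Alb, the gene of serum albumin, had 68, 385, 10 and 32 counts in the controls, against 6240, 8913 and 354 in Notch3-/- mice. Notch3-/- mice 1 and 2 were thus above all control mice. The summed level of mouse 3 was within the control range, but only control mouse 2 was higher. Trf was a large part of these low sums, with 131, 141, 100 and 97.0 CPM in controls 1 to 4 and 129 CPM in Notch3-/- mouse 3. Of the 14 hepatocyte genes tested, all had an unadjusted p under 0.05 with higher levels in Notch3-/- mice (7.34% of all genes) and 0 were called by edgeR, while DESeq2 called 15 of 15 (3.53% of all genes). In 7 of the 14 all Notch3-/- mice lay above all control mice (4.71% of all genes), and the median log2 fold change was 6.99. Mouse 2 had 1.08 to 3.60 times the CPM of mouse 1 for these 15 genes (median 1.80), 7.59 times for Cidec and 282 times for Elovl3, the last against 2 counts in mouse 1.

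The mice also differed in genes of the sex chromosomes, in lists added after the values were seen. Xist, the RNA of X inactivation in females, had 25, 1128, 2 and 3 counts in the controls, against 1729, 5 and 3 in Notch3-/- mice. Ddx3y, on the Y chromosome, had 358, 4, 552 and 288 counts in the controls, against 1, 636 and 705 in Notch3-/- mice. Control mouse 2 and Notch3-/- mouse 1 were thus high for Xist and low for Ddx3y, and the other 5 mice were the reverse. Of 7 genes known as higher in male liver, all 7 were highest in Notch3-/- mouse 2, such as Cyp4a12a with 408 counts against 1 in Notch3-/- mouse 1. Of 7 genes known as higher in female liver, 6 were highest in Notch3-/- mouse 1, such as A1bg with 2114 counts against 8 in Notch3-/- mouse 2, and the exception was Cyp17a1 with 167 and 251 counts. The part of liver RNA and of sex in the Elovl3 and Cidec counts was not tested.

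**Figure D4:**
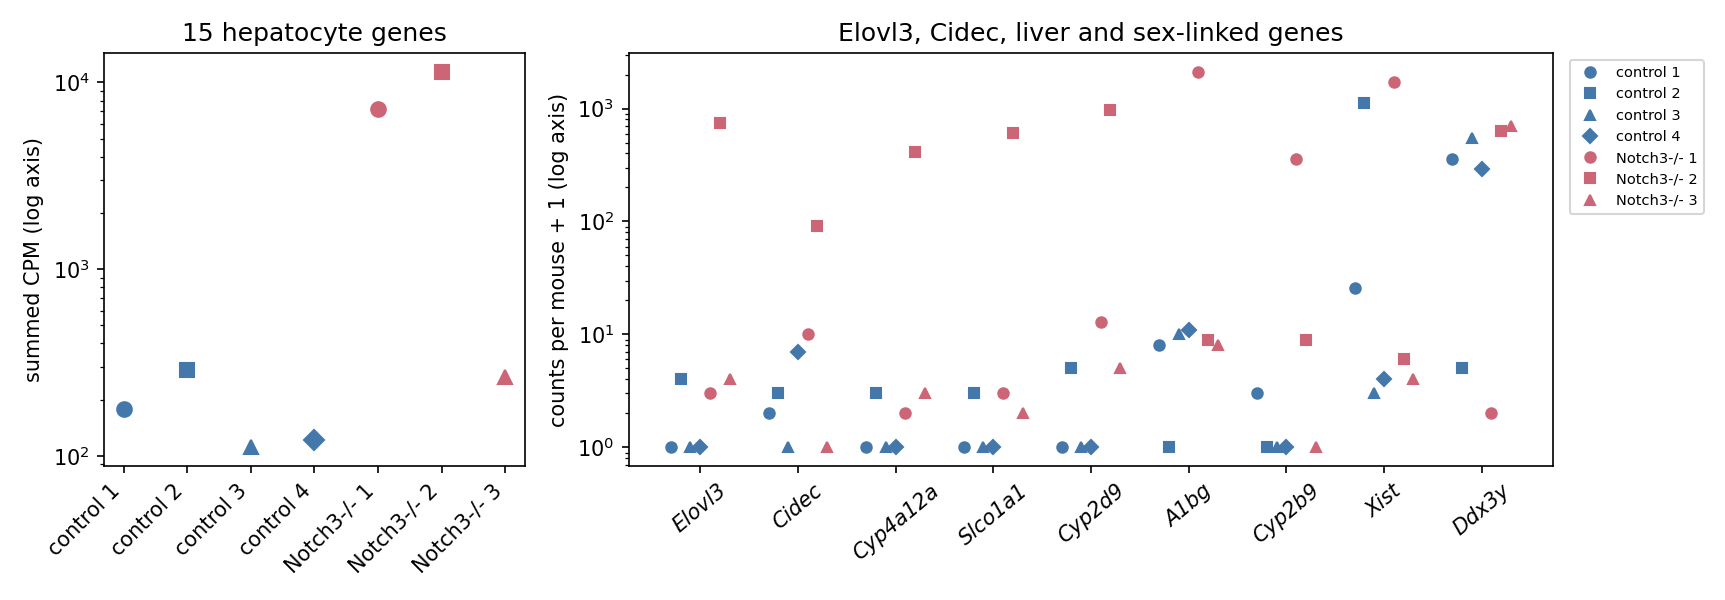
Left, summed CPM of 15 hepatocyte genes per mouse on a log axis. Right, counts per mouse plus 1 on a log axis for Elovl3, Cidec, 5 liver genes and the sex-linked genes Xist and Ddx3y, in 4 control mice (blue) and 3 Notch3-/- mice (red). Elovl3, Cidec, Cyp4a12a, Slco1a1 and Cyp2d9 are highest in Notch3-/- mouse 2, and A1bg and Cyp2b9 in Notch3-/- mouse 1.

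Among genes that passed edgeR's expression filter, no adipocyte gene was called by genotype. Of the 10 genes, 2 (Plin4 and Cidea) passed, and edgeR called 0 of these. Of the same 2, 0 had an unadjusted p under 0.05 or had groups that did not overlap. Over all genes tested, 7.34% had an unadjusted p under 0.05 with higher and 3.05% with lower levels in Notch3-/- mice, 4.71% lay above all control mice in all 3 Notch3-/- mice and 3.66% below. DESeq2 gave an adjusted p for 4 of the 10 (Plin4, Cidea, Cfd and Cidec) and called 0, where it called 3.53% of 17013 genes. For Elovl3 it gave a log2 fold change of 8.27 but no p, so its 0 calls say nothing of that gene. With every gene of at least 1 count kept, edgeR called 2.22% of 28790 genes and 1 of the 10, Elovl3. Its log2 fold change was then 7.83 (SE 1.66, FDR 0.0164 in edgeR with Benjamini-Hochberg adjustment over all genes), with 1 of 3 Notch3-/- mice above all control mice, and a fitted value of a gene this low depends on the prior count. With Notch3-/- mouse 2 left out it was 1.45 with an FDR of 0.857 in the same edgeR test with Benjamini-Hochberg adjustment. Without Notch3-/- mouse 3 the filtered fit called 936 of 15008 genes tested and 0 of the 2 adipocyte genes tested in it.

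Other genes of white fat include many that heart muscle and its vessels also use. Of 22 such genes, 17 were tested, with 5 higher (7.34% of all genes) and 2 lower (3.05% of all genes) at an unadjusted p under 0.05. EdgeR called 0 of them, and their median log2 fold change was 0.05 beside -0.0028 over all genes tested. Lpl, the lipase that frees fatty acids from lipoproteins, had the highest mean CPM (1920), followed by the glucose transporter Slc2a4 (798) and Dgat2 (601), an enzyme of triglyceride synthesis. Lpl had 2065 ± 188 CPM (SD, n = 4) in control and 1727 ± 233 CPM (SD, n = 3) in Notch3-/- mice, a log2 fold change of -0.26 (edgeR FDR 0.472, Benjamini-Hochberg adjusted). The 5 with higher levels were Car3, Cebpa, Gpd1, Thrsp and Mrap, of which the first 4 are also made in liver. The 2 with lower levels were Lpl and Pnpla2, a triglyceride lipase named after its values were seen, with a log2 fold change of -0.32. Car3, a carbonic anhydrase, had 7, 14, 2 and 29 counts in the controls, against 870, 2539 and 12 in Notch3-/- mice, the same order of Notch3-/- mice as the hepatocyte genes. DESeq2 called 3 of the 22 (3.53% of all genes), Car3, Cebpa and Gpd1. All Notch3-/- mice lay above all control mice for 2 of the 17 (Gpd1 and Nrg4), beside 4.71% of all genes. They lay below them for 1 (Dgat1), beside 3.66% of all genes. Nrg4 and Dgat1 were named after their values were seen. Acvr1c, Lgals12 and Adrb3, chosen after their values were seen, had at most 7 counts in a mouse.

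Genes of brown fat ranged from 0 counts to a mean of 235 CPM. Of 16, 10 were tested, and 2 had an unadjusted p under 0.05 with higher levels (Pank1 and Gk), beside 7.34% of all genes. EdgeR called 0 and DESeq2 called 1, Pank1 (3.53% of all genes), with a median log2 fold change of -0.16. Ppargc1a, a regulator of mitochondria, Kcnk3, a potassium channel, and Cox7a1, a subunit of cytochrome c oxidase, had the highest means, at 235, 234 and 206 CPM. Lhx8 and Otop1 had 0 counts in all 7 mice and Zic1 0 to 4, while Prdm16 and Ebf2, regulators of brown fat, had means of 41.9 and 14.5 CPM (all 5 chosen after their values were seen). Pank1, a coenzyme A synthesis enzyme, had 31.0, 36.7, 24.9 and 30.7 CPM in the controls, against 54.7, 127 and 35.2 CPM in Notch3-/- mice. Notch3-/- mouse 3 lay below control mouse 2, so the groups overlapped. The order of the Notch3-/- mice for Pank1 was that of the summed hepatocyte genes. Mouse 2 had 2.33 times the Pank1 CPM of mouse 1, beside a median of 1.80 times for the hepatocyte genes. The part of liver RNA in the Pank1 counts was not tested. Gk, glycerol kinase, had 93.0, 127 and 97.2 CPM in Notch3-/- mice 1 to 3, against 70.8 to 87.8 CPM in the control mice. It was the 1 tested brown fat gene whose groups did not overlap, beside 4.71% of all genes that lay higher in this way. The other uncoupling proteins were both tested, with 0 at an unadjusted p under 0.05, 0 called by edgeR or DESeq2 and a median of -0.63. Ucp2 had 193 ± 68.8 CPM (SD, n = 4) in control and 134 ± 19.7 CPM (SD, n = 3) in Notch3-/- mice. Ucp3, of muscle mitochondria, had 156, 198, 309 and 266 counts in the controls, against 41, 68 and 473 in Notch3-/- mice. In CPM, Notch3-/- mice 1 and 2 lay below all control mice and mouse 3 (88.4) was level with the highest of them (87.7).

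Genes of lipid droplets all had a mean of at least 34.3 CPM. All 12 were tested, with 3 higher (7.34% of all genes) and 0 lower (3.05% of all genes) at an unadjusted p under 0.05. EdgeR called 0, and the median log2 fold change was 0.09. Fitm2, which helps droplets to form, Plin5 and Plin3 had the highest means, at 572, 364 and 363 CPM. The 3 higher genes were Cideb and the elongases Elovl5 and Elovl6, and DESeq2 called Cideb and Elovl6 (3.53% of all genes). In CPM all 3 were highest in Notch3-/- mouse 2 and lowest of that group in mouse 3, as the summed hepatocyte genes were. The part of liver RNA in their counts was not tested. Elovl6 had 3, 26, 4 and 18 counts in the controls, against 191, 1603 and 15 in Notch3-/- mice, and Elovl5 136, 235, 234 and 183 against 478, 3214 and 269. Both had their highest counts in Notch3-/- mouse 2, as Elovl3 did, and the groups overlapped for both: in CPM, Notch3-/- mouse 3 (50.3 for Elovl5) lay within the control range (44.4 to 60.4).

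Receptors for the fat hormones were present although the hormones were scarce. All 5 genes were tested, with 1 higher at an unadjusted p under 0.05 (7.34% of all genes). EdgeR and DESeq2 called 0, and the median log2 fold change was -0.08. Cdh13, which binds adiponectin on vessels and muscle, had 444 ± 22.4 CPM (SD, n = 4) in control and 421 ± 23.7 CPM (SD, n = 3) in Notch3-/- mice. Adipor1 had means of 252 and 223 CPM. Adipor2, the receptor of liver as well as muscle, had 44.1, 57.0, 36.2 and 54.1 CPM in the controls, against 72.9, 118 and 53.1 CPM in Notch3-/- mice, and the leptin receptor Lepr 1.09 to 8.48 CPM over the 7 mice.

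Markers of other cells around fat and vessels were read the same way. Of 7 fibroblast and fat precursor genes 6 were tested, and 4 were higher at an unadjusted p under 0.05 (Dpp4, Pi16, Icam1 and Cd34), beside 7.34% of all genes. EdgeR and DESeq2 called 0, in 3 (Dpp4, Pi16 and Cd34) all Notch3-/- mice lay above all control mice (4.71% of all genes), and the median log2 fold change was 0.35. Cd34, Pi16 and Ly6a had the highest means, at 225, 115 and 114 CPM, and Dlk1 had 0 counts. Summed over the list, CPM was 478 to 576 in control and 620 to 713 in Notch3-/- mice. The highest sum, in Notch3-/- mouse 2, included 92.3 CPM of Dpp4, against 2.31 to 12.0 CPM in the control mice, and that mouse was also highest for the summed hepatocyte genes. Ly6a and Pdgfra had log2 fold changes of -0.02 and 0.03, the second chosen after its values were seen. The 6 mesothelium genes, of the layer that covers the heart, summed to 32, 69, 234 and 180 counts in the controls, against 136, 171 and 592 in Notch3-/- mice, with Wt1, Msln and Upk3b the highest, 0 called and a median of 0.81. Control mice 1 and 2, whose labels start with X while the other 5 start with k, were the lowest. Capillary genes (6 tested, 0 called, median -0.09) summed to 1820 to 2244 CPM in control and 1841 to 1984 CPM in Notch3-/- mice, with Cd36 (1529), Pecam1 (227) and Cdh5 (124) the highest means. The 8 ventricular genes had 0 called and a median of -0.26, the 3 atrial genes tested 0 called and -0.44. Lymphoid genes summed to 5.39 to 20.1 CPM over the 7 mice, Cd79a and Ms4a1 had the highest means, and Rag1 had 0 counts. In the capillary, atrial, ventricular, mesothelium and lymphoid lists 0 genes had an unadjusted p under 0.05 in edgeR, and DESeq2 called 0.

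Cardiac targets of the fatty acid sensor PPAR, a list added after the values were seen, varied between mice. Pdk4, which shifts muscle from glucose to fat, had 630, 661, 434 and 374 CPM in the controls, against 166, 236 and 674 CPM in Notch3-/- mice. Of these 10 genes, all were tested, and 1 was higher (7.34% of all genes) and 1 lower (3.05% of all genes) at an unadjusted p under 0.05. EdgeR and DESeq2 called 0, and the median log2 fold change was -0.28. Of 7 pairs of genes compared over the 7 mice, Pearson's r of log2 CPM between Plin4 and Pdk4 was 0.64 (Spearman's rho 0.57) and between Plin4 and its neighbour Plin5 0.85 (rho 0.61). Without the 2 mice farthest from the median of Plin4, r was 0.41 and 0.50, so both rest in part on those mice.

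The genes whose levels were most like each member over the 7 mice were ranked by Pearson's r of log2 CPM among 12729 genes with a mean of at least 5 CPM. For Elovl3 the first were Cyp4a12a (r 0.999, rho 1) and Slco1a1 (r 0.997, rho 0.88), both of the male liver list. Apart from Notch3-/- mouse 2 no mouse had more than 3 counts of any of these 3 genes, and both genes reached the mean of 5 CPM through that mouse, so these values rest on it. For Plin4 the first were Dus3l (r 0.98), Kars (0.98) and Tiprl (0.98), for Cidea Cav3 (0.99), the caveolin of muscle, and for Cidec Birc3 (0.99). These members' likeness was added after the values were seen. For Adipoq they were Ccdc93, Gna11, Gm29394, Ttc19, Sh3pxd2a, Gm37315, Vegfa, Sik2, Smap2 and Ptpa (r 0.91 to 0.99), and for Cfd Cnot2, Ada, Wdr59, Armcx2, Crk, Sidt2, Rbm19, Larp1, Smurf1 and Usf3 (r 0.92 to 0.98). With at most 9 counts of Adipoq or Cfd in a mouse and 12729 genes to choose from, such values describe order in 7 samples and are no finding.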

How the data were processed

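The authors deposited counts, whole numbers of reads per Ensembl gene and library that were not normalized. The cDNA was amplified in 22 PCR cycles without molecular identifiers, and read as single reads of 51 bases. The submitters' processing notes name mm10 and CASAVA. The aligner, counting program and use of strand are not given in the sources used here. The 92 ERCC sequences (34 counts) were left out, and 512 of 46517 genes had no symbol in the name table. Libraries held 464390 to 2134368 counts in control and 979804 to 2427783 in Notch3-/- mice. Counts were summed per mouse and tested in R 4.3.3 with edgeR 4.0.16 (filterByExpr, TMM, quasi-likelihood test, genotype only, Benjamini-Hochberg over all genes). DESeq2 1.42.0 and limma 3.58.1 were alternatives, with other filters, mice or libraries left out and a hepatocyte covariate. Log2 CPM used a prior count of 2. The fits were tested on simulated data. Exon lengths come from GENCODE vM21 (GRCm38). Intervals are exact binomial and cover counting error only. Named genes were all members, Notch3, the 3 most abundant genes of each list and up to 6 with an unadjusted p under 0.05, and the 10 genes most like Adipoq and Cfd. Members and lists were chosen with earlier results of these data known, and the likeness of other members and the ratios without single mice were added after seeing the values. Values of some single genes that this rule would name are not reported here.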

Additional observations from a re-analysis of the deposited data

Results flagged for a closer look

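In the 4 control mice, 1 mouse stood apart for 3 of the adipocyte genes, measured as its gap to the nearest mouse divided by the range of the group. For Lep the share was 1, with 11 counts in control mouse 4 and 0 in the others. For Cfd it was 0.876, with 8 counts in control mouse 4 and 0 or 1 in the others. For Elovl3 it was 1, with 3 counts in control mouse 2 and 0 in the others, which is at the floor of 3 counts. Where 3 mice have 0 counts the share is 1 for any count in the other mouse, so for Lep and Elovl3 the zeros set it. Chance flags about 1 in 20 groups of continuous values, a rate that does not apply to counts as low as these.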

How the results depend on the processing

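The count of called genes was 601 with DESeq2, 639 with every gene of at least 1 count, 0 in the k-labelled mice and 0 with the hepatocyte covariate. The hepatocyte genes were high in Notch3-/- mice 1 and 2 and in no control mouse, so this covariate is tied to genotype. The fit with it lost the Notch3 call too and cannot tell liver RNA and genotype apart. In the k-labelled mice Notch3 had 245 and 185 counts in the controls and 22, 36 and 25 in Notch3-/- mice, so there the call was lost and not the difference. It was 65 with limma-voom on 21 libraries, which made more false calls than edgeR on simulated data, 62 with the replicate block added, and 48, 39 and 77 in technical libraries 1, 2 and 3 alone. With mice left out in turn it ranged from 1 to 936, the last without Notch3-/- mouse 3. The technical numbers do not pair the mice, as 3 of 63 pairs of libraries with the same number and different mice had a correlation over 0.1. The count of adipocyte genes called was 0 in 21 of 22 alternatives, the block included, and 1 with every gene kept. In most of these only Plin4 and Cidea were tested, against 4 of the 10 with DESeq2 and all 10 with every gene kept, so it says little of the others. With every gene kept and without Notch3-/- mouse 2, chosen after seeing the data, 686 genes were called.

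The Plin4 log2 fold change (-0.12) turned to 0.0057 without control mouse 2, 0.11 without Notch3-/- mouse 2, 0.0015 in k-labelled mice, 0.29 with the hepatocyte covariate, 0.20 in technical library 2 alone and, in alternatives added later, 0.13 with every gene and no Notch3-/- mouse 2 and 0.31 without Notch3-/- mice 1 and 2, where the lone mouse is assumed to vary like the control mice. For Cidea (-0.21) it turned to 0.30 with the covariate, 0.29 in technical library 1 alone and 0.082 without Notch3-/- mice 1 and 2. None of these was called, and the cause was not tested. With mice left out in turn Plin4 ranged from -0.40 to 0.11 and Cidea from -0.40 to -0.058. Mean CPM moved by less than 1 SD for each of the 10 genes with unscaled totals and with the mean of the 3 libraries. A prior count of 0.5 moved mean log2 CPM to -1.50 for Adipoq, -2.58 for Plin1, -2.35 for Lep, -1.12 for Retn and -2.26 for Ucp1, genes with few counts. Counts this low limit what can be said of 6 of the genes.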
